A study of Mus musculus with 8 samples.

Results

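The mature arms mmu-miR-221-3p, mmu-miR-221-5p and mmu-miR-222-3p (written without the species prefix from here on) were followed in the mouse hepatocyte line 3A, which is non-tumorigenic, and in the extracellular vesicles (EVs) of their medium. These 3 arms were taken by name from the 1978 mouse mature miRNAs of a count table, and miR-222-5p, the remaining arm of the hairpins, is given for comparison. Reads were counted for all 3 arms, of which 2 passed the filter used for testing (at least 1 read in at least 2 cell and 2 EV libraries), together with 178 other miRNAs. The 8 small RNA libraries came from cells and EVs of a control line (shCTR) and a silenced line (shPCBP2), with 2 biological replicates for each of the 4 conditions. The control cells carried a scrambled shRNA and the silenced cells an shRNA against PCBP2, an RNA-binding protein examined in the study for retaining miRNAs inside the cell. Both shRNAs were delivered stably by a retroviral vector and selected with 2 µg/mL puromycin, and both lines were kept in medium with serum, EGF, IGF II and insulin. EVs were purified by ultracentrifugation from medium with EV-depleted serum after 72 h of culture, and a spike-in, cel-miR-39 of the nematode, went into the RNA before library preparation. Small RNA libraries do not measure PCBP2 itself, so the silencing could not be checked here.

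miR-221 and miR-222 are made from neighbouring hairpins on the X chromosome and share a seed, the stretch near the 5′ end that pairs with target mRNAs. They are known for promoting proliferation by repressing the cell cycle inhibitors p27 (Cdkn1b) and p57 (Cdkn1c), and for being raised in hepatocellular carcinoma. The 3p arm is the main product of both hairpins, while the 5p arm is the strand that is mostly degraded.

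In RefSeq (GRCm38.p6), Mir221 lies on the minus strand at chrX:19146294-19146388 and Mir222 on the same strand at chrX:19146893-19146971, with 504 bases between them. No other gene of the GENCODE annotation overlaps either hairpin, and the nearest, the non-coding gene Gm14636, lies 10010 bases from Mir222. The hairpins are shown to place the arms, with the tabled mature arms in capitals. For Mir222 only the 3p arm is in the sequence table.
Mir221: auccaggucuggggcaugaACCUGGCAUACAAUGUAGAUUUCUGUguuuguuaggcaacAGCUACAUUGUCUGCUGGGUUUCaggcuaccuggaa
Mir222: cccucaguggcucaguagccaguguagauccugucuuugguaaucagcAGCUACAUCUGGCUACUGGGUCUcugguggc

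The mature arms are shown with the seed (bases 2 to 8) in capitals.
miR-221-3p: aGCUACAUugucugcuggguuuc
miR-222-3p: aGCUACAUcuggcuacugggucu
miR-221-5p: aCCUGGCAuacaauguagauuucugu
The 3p arms shared the seed GCUACAU and their first 8 bases, and were identical at 11 of 23 positions aligned from the 5′ end. Only miR-1928 had the same seed among the miRNAs of the count table with a sequence, and it had 0 reads in all libraries. The study, which looks for proteins that keep miRNAs in the cell, works with a CELL (retention) and an hEXO (export) motif. miR-221-3p held AUUG, a form of the core CELL motif, from base 7. miR-222-3p held GGCU, the letters searched here for hEXO, from base 11. By these exact letters neither 3p arm held the motif of the other, and miR-221-5p held none of AUUA, AUUG and GGCU. The study also scanned for an extended CELL motif, which was not searched here, so a CELL motif in that wider sense is not excluded. The looser hEXO pattern given by the study, which allows several bases at each position, was searched after the values were seen. It occurred in all 3 arms (in miR-221-3p from base 7 and from base 9), as in 82.1% of the miRNAs with a sequence, so it does not separate them. The 3p arms are shown with the exact letters in capitals.
miR-221-3p: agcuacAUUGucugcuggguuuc
miR-222-3p: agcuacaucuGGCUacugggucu

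Library totals ran from 26391248 to 38166798 counted reads. Mouse miRNAs took 33.1 to 42.6% of them in cells but only 1.62 to 2.42% in EVs, and the spike-in took the rest. In EVs, few miRNAs had low counts: the lowest 5% of counts above 0 reached up to 36.8 to 71.6 reads, against 3 to 12 in cells. Of the hepatocyte miRNAs, miR-194-5p had 218474 to 342726 reads in the cell libraries and miR-192-5p 10976 to 20510, but miR-122-5p, the most typical, had only 356 to 485. The summed level of these 3 was 2.41 to 2.86% of miRNA reads in cells and 0.866 to 1.18% in EVs. The members differed: in EVs, miR-194-5p had 3784 to 5454 reads, and miR-192-5p had 1058 and 62 (control) and 0 and 0 (silenced). miR-122-5p had 795 to 2327 EV reads, more than in any cell library. Its fitted log2 EV/cell ratio by the spike-in was 1.02 (SE 0.75) for control and 1.15 (SE 0.75) for silenced, and neither passed. EV libraries also held miRNAs of blood cells. The summed level of 3 erythroid miRNAs was 5.15 to 6.14% of miRNA reads in EVs and at most 0.00152% in cells, where miR-451a and miR-144-3p were at 0. For 4 leukocyte miRNAs it was 1.37 to 1.70% in EVs and at most 0.000707% in cells. Summed levels in EVs were 0.289 to 0.561% for the endothelial miR-126a-3p, 0.332 to 0.670% for 3 mesenchymal miRNAs and 0.0140 to 0.0354% for 3 muscle miRNAs, against 0.0145 to 0.0190%, 0.00130 to 0.00280% and 0.121 to 0.154% in cells. Some sums rest mostly on 1 member. In cells, the muscle miR-206-3p had 12252 to 19342 reads, miR-1a-3p 6 to 52 and miR-133a-3p 0 to 13. In EVs these had 86 to 178, 0 to 65 and 0 reads. Of the erythroid miRNAs in EVs, miR-486a-5p had 26618 to 34143 reads, miR-451a 3595 to 4430 and miR-144-3p 135 to 314. These lists moved with every EV/cell comparison below, and their part in it was not tested.

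miR-221-3p was abundant in both compartments. It had 98813 and 79190 reads in control cells and 71908 and 87744 in silenced cells. Control EVs gave 5908 and 4320 reads and silenced EVs 6237 and 4653. It ranked between 24 and 30 among the mouse miRNAs of every library. Fewer miRNAs were detected in EVs, 183 to 202 against 466 to 599 in cells. It therefore lay above 85.6 to 87.3% of the detected miRNAs in EVs and above 93.6 to 95.7% in cells. miR-222-3p was the minor partner. It had 5677 and 4980 reads in control cells, 3551 and 4058 in silenced cells, 210 and 63 in control EVs, and 230 and 220 in silenced EVs. Its rank was 93 to 98 in cells and 105 to 169 in EVs, above 79.4 to 83.6% and 9.09 to 42.6% of the detected miRNAs. The low value was EV shCTR replicate 2, whose 63 reads (exact 95% Poisson interval 48.4 to 80.6, counting error only) lay far under those of the other EV libraries.

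**Figure D1:**
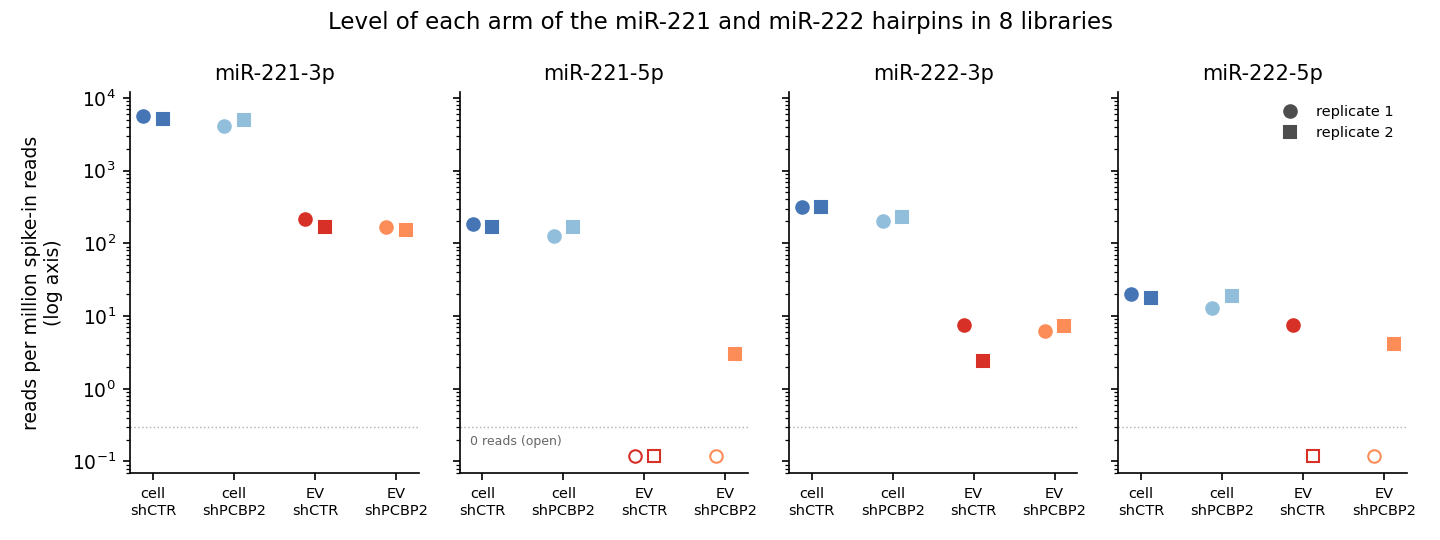
Spike-in RPM (reads per 1000000 spike-in reads, log axis) of each arm in the 4 conditions, with 1 point per library and open points at the bottom for libraries with 0 reads. miR-221-3p lies at 4075 to 5545 in cells and 153 to 213 in EVs, while the 5p arms are at 0 in 3 and 2 of the 4 EV libraries.

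Relative to the spike-in, both 3p arms were lower in EVs than in cells. In shCTR, miR-221-3p stood at 5289 ± 362 spike-in RPM (reads per 1000000 spike-in reads) in cells and 189 ± 33.1 in EVs (SD, n = 2), with no overlap between compartments. The fitted log2 EV/cell ratio was -4.80 (SE 0.22) in shCTR, a level 27.9-fold lower in EVs (edgeR quasi-likelihood, BH-adjusted p = 7.46e-06). In shPCBP2 it was -4.82 (SE 0.22; edgeR quasi-likelihood, BH-adjusted p = 5.83e-06). For miR-222-3p the level in shCTR was 318 ± 1.45 spike-in RPM in cells and 4.99 ± 3.64 in EVs (SD, n = 2). Its log2 EV/cell ratio was -5.99 (SE 0.77) in shCTR, or 63.5-fold lower (edgeR quasi-likelihood, BH-adjusted p = 0.000523), and -5.00 (SE 0.74) in shPCBP2 (edgeR quasi-likelihood, BH-adjusted p = 0.00103). Both tested arms were thus called lower in both lines. Lower ratios were the rule, since of the 180 tested miRNAs 66.1% passed in shCTR (59.4% lower in EVs and 6.67% higher) and 67.8% in shPCBP2 (60% lower and 7.78% higher). This split moved with the scaling: 12 were higher and 107 lower in shCTR by the spike-in, but 42 and 40 by TMM factors, 40 and 36 by median-of-ratios size factors and 43 and 32 by the total miRNA count. In shPCBP2 the splits were 14 and 108, then 42 and 45, 45 and 41, and 54 and 35. The median log2 ratio of all tested miRNAs was -4.93 in shCTR. miR-221-3p was 0.13 above this median and miR-222-3p 1.06 below it. A smaller amount of EVs per spike-in and less miRNA per EV cannot be told apart in these libraries.

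As a share of mouse miRNA reads, the picture differed. Per 1000000 miRNA reads, miR-221-3p had 7761 and 6769 in control cells, 8222 and 6945 in silenced cells, 8592 and 7804 in control EVs, and 10082 and 9249 in silenced EVs. The compartments overlapped at EV shCTR replicate 2 and cell shPCBP2 replicate 1. Scaled in this way, the log2 EV/cell ratio of miR-221-3p was 0.17 (SE 0.13) in shCTR and 0.35 (SE 0.13) in shPCBP2, neither of which passed (edgeR quasi-likelihood, BH-adjusted p = 0.334 and 0.0621). For miR-222-3p the values were -1.06 (SE 0.69) and 0.15 (SE 0.69; edgeR quasi-likelihood, BH-adjusted p = 0.286 and 0.905). The call of a lower level in EVs therefore held relative to the spike-in, and for neither arm relative to the other miRNAs of the library.

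The balance between the 3p arms needs no scaling, since both are counted in the same library. Of their summed reads, miR-222-3p took 5.43% and 5.92% in control cells and 4.71% and 4.42% in silenced cells. It took 3.43% and 1.44% in control EVs and 3.56% and 4.51% in silenced EVs. All EV libraries but EV shPCBP2 replicate 2 lay below all cell libraries. The log2 ratio of miR-221-3p to miR-222-3p was 5.02 ± 0.74 in EVs and 4.22 ± 0.20 in cells (SD, n = 4), a difference of 0.80 or 1.74-fold. This did not pass an exact two-sided permutation test of the 4 EV against the 4 cell libraries (p = 0.0571, where the smallest possible is 0.0286). Without a library, the difference ran from 0.44 (EV shCTR replicate 2 left out) to 1.00 (EV shPCBP2 replicate 2 left out). With the reads of both arms of each hairpin added it was 0.44 (exact two-sided permutation test, p = 0.571).

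**Figure D2:**
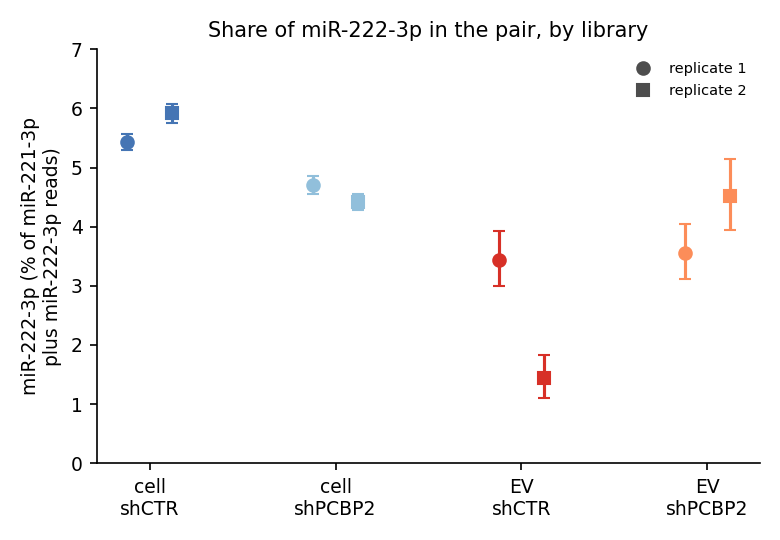
miR-222-3p as a percentage of the reads of miR-221-3p plus miR-222-3p, with 1 point per library and bars for the exact (Clopper-Pearson) 95% interval, which covers counting error only. Cell shCTR lies at 5.43 and 5.92% and EV shCTR replicate 2 is the lowest at 1.44%.

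In cells, the balance moved with the silencing by little but without overlap. The log2 ratio of miR-221-3p to miR-222-3p was 4.06 ± 0.09 in cell shCTR and 4.39 ± 0.07 in cell shPCBP2 (SD, n = 2). In EVs it was 5.46 ± 0.91 in shCTR and 4.58 ± 0.25 in shPCBP2, in the opposite direction. Replicate 1 of each EV condition lay close to the other, at 4.81 in shCTR and 4.76 in shPCBP2. The difference in EVs thus came mostly from EV shCTR replicate 2, at 6.10, with 63 reads of miR-222-3p. How often other pairs of miRNAs lay apart by condition was not counted. With 2 libraries a side the smallest two-sided p of an exact permutation test is 0.333, so neither difference was tested, nor was the difference between them.

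PCBP2 silencing did not change either 3p arm past the test. The cell level of miR-221-3p was 4500 ± 600 spike-in RPM in shPCBP2 against 5289 ± 362 in shCTR (SD, n = 2), and shPCBP2 replicate 2 (4924) lay close to shCTR replicate 2 (5033). The fitted log2 change was -0.23 (95% interval -0.69 to 0.22) in cells and -0.25 (-0.70 to 0.21) in EVs (edgeR quasi-likelihood, BH-adjusted p = 0.709 and 0.593). The medians of all tested miRNAs were -0.49 and -0.54, and both intervals include the median as well as 0. With the other scalings its change was above 0 in both compartments, from 0.033 to 0.27, and passed in none.

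The log2 EV/cell ratios of miR-221-3p, -4.80 in shCTR and -4.82 in shPCBP2, lay close together. The change of the ratio was -0.01 with a 95% interval from -0.66 to 0.63 (edgeR quasi-likelihood, BH-adjusted p = 0.992). Leaving out a library in turn gave -0.18 to 0.18. Neither 3p arm passed in this comparison or in cells or EVs alone. Over all tested miRNAs, 2.22% passed for the change of the ratio (0.556% higher and 1.67% lower), 7.22% in EVs (1.67% higher and 5.56% lower) and 0% in cells. In cells, 0 miRNAs passed with edgeR, 25 had an unadjusted p under 0.05, all lower in shPCBP2, and 18 passed with DESeq2. With DESeq2, too, neither 3p arm passed in any of the 3 comparisons of shPCBP2 with shCTR.

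For miR-222-3p the errors were wider. Its cell level was 319 and 317 spike-in RPM in shCTR and 201 and 228 in shPCBP2. The fitted log2 change in cells was -0.57 (95% interval -2.08 to 0.95), close to the median of all tested miRNAs (edgeR quasi-likelihood, BH-adjusted p = 0.919). Control EVs had 7.56 and 2.42 spike-in RPM and silenced EVs 6.13 and 7.23, and the conditions overlapped. The EV change was 0.42 (95% interval -1.10 to 1.94; edgeR quasi-likelihood, BH-adjusted p = 0.821), and -0.18 without EV shCTR replicate 2.

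The EV/cell ratio of miR-222-3p was 0.99 higher in shPCBP2 on the log2 scale, with a 95% interval from -1.16 to 3.13 (edgeR quasi-likelihood, BH-adjusted p = 0.992). This value depended on both control EV libraries: it was 0.39 with replicate 2 left out and 2.03 with replicate 1 left out. Among the 4 EV libraries, the gap between EV shCTR replicate 2 and the next was 0.815 of the whole range of log2 levels, below the critical value of 0.829 for an outlier among 4.

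**Figure D3:**
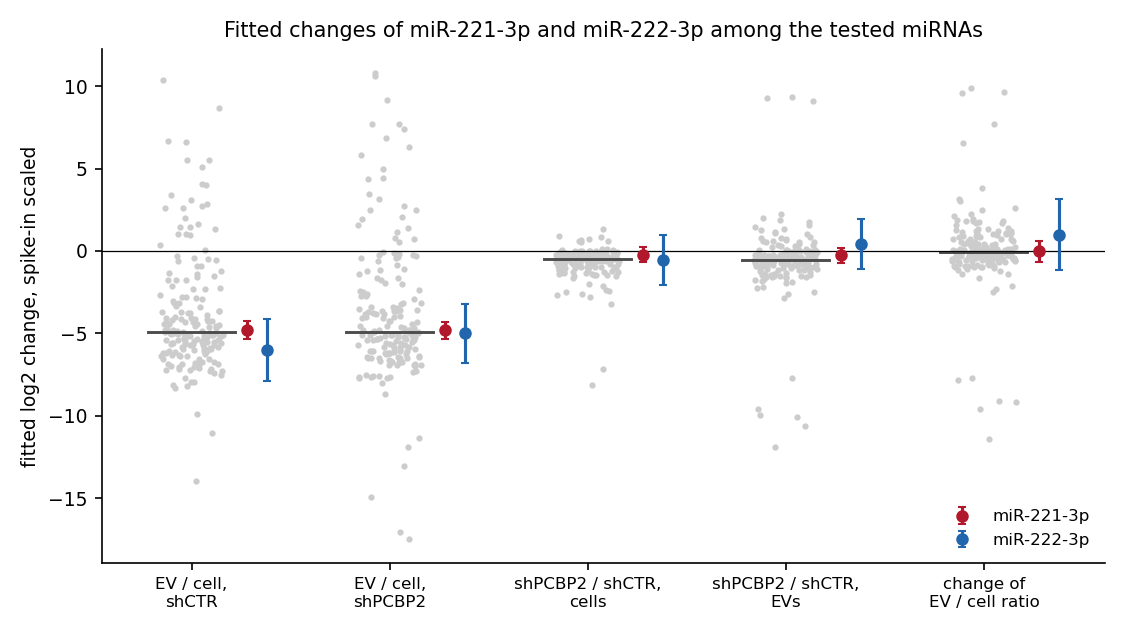
Fitted log2 changes relative to the spike-in for 5 comparisons, with grey points for the 180 tested miRNAs, dark lines for their medians, and coloured points with 95% intervals for miR-221-3p and miR-222-3p. For EV/cell in shCTR miR-221-3p lies near the median of -4.93 and miR-222-3p 1.06 below it, and the intervals of the 3 comparisons of shPCBP2 with shCTR include 0.

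The 5p arm of Mir221 was read steadily in cells and rarely in EVs. miR-221-5p had 3323 and 2614 reads in control cells, 2255 and 2963 in silenced cells, 0 and 0 in control EVs, and 0 and 92 in silenced EVs. It took 3.25%, 3.20%, 3.04% and 3.27% of the reads of its hairpin in the cell libraries, values that differ by little. In EV shCTR it took 0 of 5908 and 0 of 4320 reads, which allows a share of up to 0.0508% and 0.0694% (3 counts per library, counting error only). In EV shPCBP2 it took 0 of 6237 reads, which allows up to 0.0481%, and 1.94% of 4745 reads (exact 95% interval 1.57 to 2.37%). Every EV library thus lay below every cell library in the share of the 5p arm. How often the minor arm of other hairpins did so was not counted, and fewer miRNAs were detected in EVs than in cells. At the share of the pooled cell libraries, 143 to 206 reads would have been counted in each EV library. The cell share was no guide to the EV counts of miR-222-5p, as given below. Counts above 0 were rarely low in EV libraries, where 1.98 to 5.46% of them were 40 or fewer, and the limits do not cover the spread between libraries. miR-221-5p did not enter the tested set, since only 1 EV library had reads, so its presence in 1 of 2 EV shPCBP2 libraries is given as counts alone.

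The 5p arm of Mir222 behaved differently. miR-222-5p had 361 and 277 reads in control cells, 225 and 334 in silenced cells, 211 and 0 in control EVs, and 0 and 127 in silenced EVs. In cells it took 5.27 to 7.60% of the reads of its hairpin. In EV shCTR replicate 1 it took 50.1% (exact 95% interval 45.2 to 55.0%) and in EV shPCBP2 replicate 2 it took 36.6% (31.5 to 41.9%). The other EV libraries had 0 of 63 and 0 of 230 reads, for which the exact 95% interval reaches 5.69% and 1.59%. The first of these includes the lowest cell share of 5.27%. The EV libraries of the same condition were therefore farther apart than either was from the cells. At the share of the pooled cell libraries, 4.13 to 15.1 reads of miR-222-5p would have been counted in each EV library. The counts of 211 and 127 lay above this range and the others at 0. Its fitted log2 EV/cell ratio was -2.31 (SE 2.87) in shCTR and -2.91 (SE 2.94) in shPCBP2 (edgeR quasi-likelihood, BH-adjusted p = 0.476 and 0.406). The change of this ratio, shPCBP2 against shCTR, was -0.60 (SE 3.86; edgeR quasi-likelihood, BH-adjusted p = 0.992). These errors were too wide to show differences of this size. EV shPCBP2 replicate 2 was the only EV library with reads of all 4 arms. Ligation efficiency differs between sequences, so the shares of the arms are comparable between libraries rather than as amounts of RNA.

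**Figure D4:**
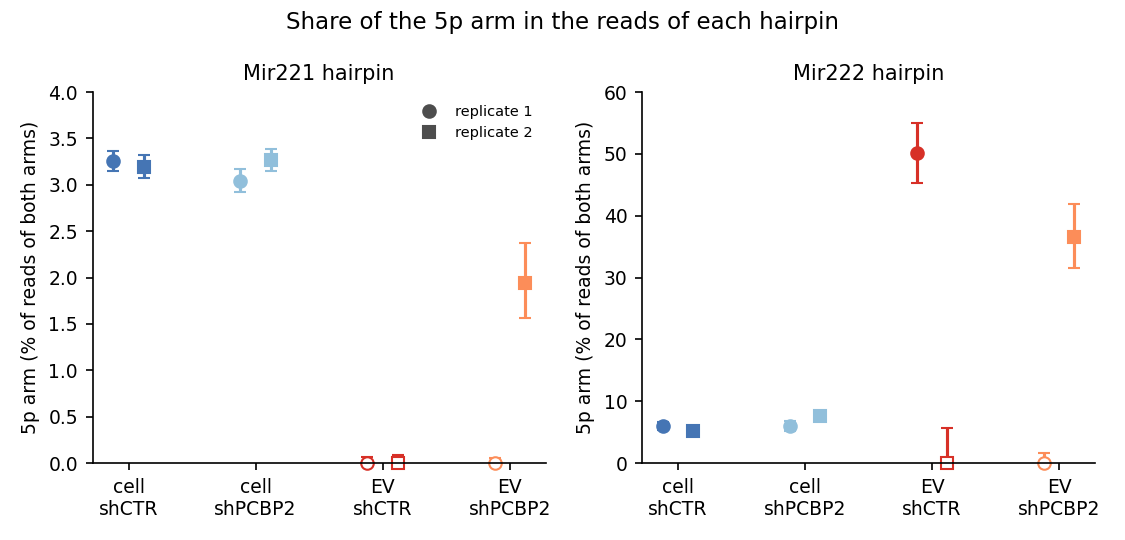
Reads of the 5p arm as a percentage of the reads of both arms, for Mir221 (left, axis to 4%) and Mir222 (right, axis to 60%), with 1 point per library, open where the 5p arm had 0 reads, and exact 95% intervals for counting error. The cell libraries lie at 3.04 to 3.27% and 5.27 to 7.60%, while the EV libraries reach 50.1% for Mir222.

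The motifs were set beside the values of other miRNAs as a description. A sequence was found for 1679 of the 1978 miRNAs, searched on their own strand for the exact letters. AUUG was held by 6.79% and GGCU by 13.3% of them. Of the 156 tested miRNAs with a sequence, 25 held AUUG, none of the others held AUUA, and 24 held GGCU. The median log2 EV/cell ratio in shCTR was -5.19 with AUUG, -5.17 with GGCU and -5.06 for all 156. The median change of this ratio in shPCBP2 was -0.01 with AUUG, -0.36 with GGCU and -0.13 for all 156. miR-221-3p was itself the median of the AUUG group for the change, whereas miR-222-3p, at 0.99, lay above the upper quartile of 0.33 of the GGCU group. Calls for the change numbered 0 with AUUG, 0 with GGCU and 4 among all 156. Both motifs, the combination that the study links to PCBP2 binding, were held by 3 of the 156. Their median change was -0.16, with 0 calls. Neither 3p arm was among these 3, and the AUUG and GGCU groups do not address that combination. The AUUG of miR-221-3p overlaps the end of its seed. The looser hEXO pattern was held by 90.4% of the 156, so no group was formed from it.

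Other miRNAs were compared from a list of 18 drawn up for links to growth in liver or tumours. Whether each of them promotes growth in these cells was not measured. Of the list, 16 were tested and miR-19a-3p and miR-19b-3p were not. In shCTR, 13 of the 16 were lower in EVs relative to the spike-in and 0 higher, where 59.4% of all tested miRNAs were lower and 6.67% higher, with a median log2 EV/cell ratio of -5.54, against -4.93 for all tested miRNAs. In shPCBP2, 14 were lower and 0 higher, where 60% of all were lower and 7.78% higher. These counts hold for the spike-in scaling, and those of the list under the other scalings, which moved the split of all miRNAs, were not computed. The smallest p in both lines was that of miR-21a-5p, an abundant miRNA that represses Pdcd4, with a log2 ratio of -7.41 (SE 0.24) in shCTR. It was followed by miR-24-3p at -6.75 (SE 0.22), both well below miR-221-3p. After silencing, 0 of the 16 passed in cells, where miR-25-3p (-0.55) and miR-17-5p (-0.57) had the smallest p. In EVs, where 5.56% of all tested miRNAs were lower, 1 was lower, namely miR-31-5p with a log2 change of -1.07 (SE 0.19; edgeR quasi-likelihood, BH-adjusted p = 0.0320), and the next was miR-93-5p at -0.64, which did not pass. For the change of the EV/cell ratio 0 of the 16 passed, with the smallest p for miR-31-5p (-0.60) and miR-25-3p (0.29). The list medians in cells and EVs were -0.50 and -0.45, close to those of all tested miRNAs.

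The miRNAs most like each 3p arm over the 8 libraries were sought among 112 others with at least 10 reads in every library, by the root mean square difference of centred log2 levels. For miR-221-3p they were miR-23a-3p (0.163), let-7a-5p (0.179) and miR-16-5p (0.194), against a median of 0.810. For miR-222-3p they were miR-22-3p (0.329), miR-503-5p (0.380) and miR-351-5p (0.435), against a median of 0.946. Over all 8 libraries the partners were not each other's closest. Their difference was 0.618, at which miR-222-3p ranked 43 for miR-221-3p and miR-221-3p ranked 13 for miR-222-3p. EV shCTR replicate 2, with 63 reads of miR-222-3p, weighs heavily on this difference. Its log2 ratio of miR-221-3p to miR-222-3p was 6.10, against 4.40 to 4.81 in the other EV libraries and 3.99 to 4.43 in cells. The difference and ranks without this library were not computed. All values share the spike-in scaling.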

How the data were processed

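Small RNA was sequenced in 8 libraries, with 2 biological replicates per condition as numbered in the sample titles. Sample descriptions number the shPCBP2 libraries differently. After adapter and quality trimming, the authors mapped the forward reads to the miRBase hairpins and the spike-in using mirPRo (NovoAlign aligner), and deposited raw counts per mature miRNA. Counts of 1000000 and above are printed with 6 significant digits, which touches only values far above those of the arms described. From these counts, edgeR 4.0.16 (R 4.3.3) was fitted over all 8 libraries and 180 miRNAs with library sizes equal to the spike-in count, terms for compartment, shRNA and their interaction, and a prior count of 0.125. Adjusted p-values (Benjamini-Hochberg, threshold 0.05) cover all 180 miRNAs, SEs come from the F statistic, and 95% intervals of changes use a t distribution with residual plus prior degrees of freedom (4 and 2.10). The study used DESeq2 for the interaction, run here (1.42.0) as an alternative. Levels are spike-in RPM (reads per 1000000 spike-in reads), and shares and permutation tests were computed in Python 3.11.15 with scipy 1.17.1. How much RNA each spike-in dose stood for is not given in the sources used here. The study calls the replicates biological without saying what separates them, so p-values measure the spread between these libraries. Replicates differed by more than counting noise (chi-square test). The fit was tested on simulated counts. Sequences are from the RefSeq table and gene positions from GENCODE, both on GRCm38. The alignment used hairpins, without genome coordinates. The arms, lists and tests were chosen with earlier results of these data known. Named were the arms of both hairpins, miRNAs with their seed or within 10 kb, the 2 members of the growth list with the smallest p per comparison, and the 3 miRNAs most like each 3p arm. The alternatives are those listed in the closing section. The authors' own fold changes and p-values were not used.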

Additional observations from a re-analysis of the deposited data

How the results depend on the processing

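For both 3p arms, the lower EV level relative to the spike-in kept its direction and call without a filter, with at least 10 counts in every library, with DESeq2, with the 4 libraries compared alone, with the replicate block and without any library. With another scaling the call was lost. In shCTR and shPCBP2, the log2 EV/cell ratio of miR-221-3p was -0.042 and -0.28 with TMM factors, -0.041 and -0.069 with median-of-ratios size factors, and 0.17 and 0.35 with the total miRNA count. That of miR-222-3p was -1.25 and -0.46, -1.28 and -0.25, and -1.06 and 0.15. These scalings placed the median of all tested miRNAs at -0.17, -0.15 and 0.06 in shCTR. The shPCBP2 changes of miR-221-3p turned positive with the same scalings, at 0.27, 0.18 and 0.062 in cells and 0.033, 0.15 and 0.24 in EVs. The change of its EV/cell ratio was 0.18 with the total miRNA count and -0.18 to 0.18 without a library, and turned positive without cell shCTR replicate 2, cell shPCBP2 replicate 2, EV shCTR replicate 1 or EV shPCBP2 replicate 2. Without a library, the EV change of miR-222-3p was -0.18 to 1.46 and the change of its ratio 0.39 to 2.03. The cause of these shifts was not tested.

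The number of miRNAs called for EV/cell in shCTR was 119, with 76 for median-of-ratios size factors, 75 for the total miRNA count and 294 without a filter, and in shPCBP2 122, with 294 without a filter. For shPCBP2 against shCTR in cells it was 0, with 5 for TMM factors, 1 for median-of-ratios size factors, 3 for the total miRNA count, 8 with at least 10 counts, 18 with DESeq2 and 39 with only the 4 libraries compared. In EVs it was 13, with 7 without a filter, 7 with at least 10 counts, 27 with DESeq2, 1 with only the 4 libraries compared, and 1 to 21 without a library (1 when either control cell library was left out, 8 without EV shCTR replicate 2, 21 without EV shPCBP2 replicate 1). For the change of the ratio it was 4, with 13 for TMM factors, 2 for median-of-ratios size factors, 0 with at least 10 counts, 14 with DESeq2, and 0 to 11 without a library (0 without cell shCTR replicate 1 or 2 or cell shPCBP2 replicate 2, 2 without cell shPCBP2 replicate 1, 7 when replicate 2 of either EV condition was left out, and 11 when replicate 1 was). Neither 3p arm was among the calls for shPCBP2 against shCTR under any of these settings.

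The correlation of replicate differences between conditions was -0.44 to 0.05, so the replicate numbers of the titles gave no sign of pairing. This cannot show that the libraries were unpaired, since the sample descriptions number the shPCBP2 libraries differently. With the replicate number as a block, 2 miRNAs were called in EVs and 1 for the change of the ratio, while the EV/cell ratio of miR-221-3p in shCTR was -4.81 and that of miR-222-3p -6.06. EV libraries held few miRNA reads, and the replicate spread of miR-222-3p in EVs (63 and 210 reads in shCTR) exceeded its counting error.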
